A study of Homo sapiens with 5 samples.

Results

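Nuclear genes for subunits of the respiratory chain and of ATP synthase were followed across 5 human cell lines. They were chosen by name, without use of any measured value: the symbol had to start with NDUFA, NDUFB, NDUFC, NDUFS or NDUFV and a digit, or with UQCR, or with COX followed by a digit from 4 to 8 and then A, B, C or a digit, or with ATP5 followed by a letter from A to L or by O, or had to be SDHA, SDHB, SDHC or SDHD. Names with a hyphen and names ending in P and digits were left out. The rule took 86 of the 57905 rows of the expression table, with 82 different symbols, of which 40 belong to complex I, 5 to complex II, 9 to complex III, 15 to complex IV and 17 to complex V. The letter I after the digit kept out the subunit genes COX4I1 and COX4I2. The name rule also left out CYC1 and NDUFAB1, and the values of all these genes are given separately. NDUFA4 and NDUFA4L2 are counted with complex I by their names, although the NDUFA4 protein is now regarded as a subunit of complex IV. ATP5J2LP is a processed pseudogene of ATP5J2 that the rule kept because its name does not end in a digit.

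The study asked about the transcription factor PAX5 in Merkel cell carcinoma, a skin cancer with neuroendocrine features. MCC13, MKL-1, MKL-2 and WaGa are labelled as Merkel cell carcinoma lines (n = 4) and REH as a pre-B-cell acute lymphoblastic leukemia line (n = 1), and all 5 carry the genotype label WT and were grown alike in RPMI with fetal bovine serum, with no treatment. Each line gave 1 library of oligo-dT-enriched RNA, so line and library cannot be told apart, n counts lines, and every SD is a spread between lines. Levels are in TPM (transcript abundance scaled to a fixed total), which are already per length, so they compare genes within a line but keep no read depth. Because RNA was taken in bulk from each culture, fewer cells of a type and less RNA per cell cannot be told apart.

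Oxidative phosphorylation takes place in the inner mitochondrial membrane. Complex I takes electrons from NADH and complex II takes them from succinate, both pass them to ubiquinone, complex III hands them on to cytochrome c and complex IV to oxygen. Complexes I, III and IV pump protons as they do so, and ATP synthase, also called complex V, uses the returning protons to make ATP. Most subunits are encoded in the nucleus and imported, while a small core of complexes I, III, IV and V, but none of complex II, is encoded by mitochondrial DNA. NRF1, the ETS family factor GABP and YY1 are known regulators of many of the nuclear genes.

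Promoter windows reaching from 250 bases before to 50 bases after the start of a gene were taken from RefSeq (GRCh38.p14), where 65 of the members had one. Printed here are COX8C, ATP5J and NDUFB10, which passed the test against REH. ATP5J2 also passed and is not printed. NDUFB4 and UQCR10 are printed as well, which did not pass but stood above REH in all 4 Merkel cell carcinoma lines. The printed genes are a choice made after their values were seen, and other members lay as far from REH. Capitals mark matches on either strand to an NRF1 motif of GCGCA and GCGC with 1 base of any kind between them, to CCGGAAG (ETS and GABP) or to AAGATGGCG (YY1). COX8C lies at chr14:93346932-93347231 on the plus strand, ATP5J (now named ATP5PF) at chr21:25735005-25735304 on the minus strand, NDUFB10 at chr16:1959288-1959587, NDUFB4 at chr3:120596086-120596385 and UQCR10 at chr22:29767119-29767418, the last 3 on the plus strand.
COX8C: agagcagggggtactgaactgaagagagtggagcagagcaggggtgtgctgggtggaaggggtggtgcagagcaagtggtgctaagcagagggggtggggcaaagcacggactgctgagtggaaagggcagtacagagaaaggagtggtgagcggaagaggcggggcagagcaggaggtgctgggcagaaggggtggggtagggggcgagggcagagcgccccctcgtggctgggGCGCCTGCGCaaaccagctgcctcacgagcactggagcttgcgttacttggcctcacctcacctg
ATP5J: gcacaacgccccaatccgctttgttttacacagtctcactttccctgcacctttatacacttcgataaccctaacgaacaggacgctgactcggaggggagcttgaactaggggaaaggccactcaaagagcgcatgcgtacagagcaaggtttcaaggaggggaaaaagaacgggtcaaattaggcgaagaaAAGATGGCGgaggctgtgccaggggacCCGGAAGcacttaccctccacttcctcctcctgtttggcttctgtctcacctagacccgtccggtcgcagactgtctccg
NDUFB10: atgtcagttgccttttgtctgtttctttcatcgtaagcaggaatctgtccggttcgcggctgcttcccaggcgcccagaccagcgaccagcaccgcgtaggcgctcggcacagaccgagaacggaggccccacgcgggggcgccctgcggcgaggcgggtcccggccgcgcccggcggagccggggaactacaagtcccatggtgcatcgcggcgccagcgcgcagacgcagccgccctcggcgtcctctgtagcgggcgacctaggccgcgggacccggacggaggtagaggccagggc
NDUFB4: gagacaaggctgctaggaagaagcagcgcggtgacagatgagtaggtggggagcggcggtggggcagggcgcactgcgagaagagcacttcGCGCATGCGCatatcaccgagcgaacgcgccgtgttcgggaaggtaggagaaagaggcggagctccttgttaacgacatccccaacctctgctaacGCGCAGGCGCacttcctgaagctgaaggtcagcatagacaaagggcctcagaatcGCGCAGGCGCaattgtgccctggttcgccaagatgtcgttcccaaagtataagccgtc
UQCR10: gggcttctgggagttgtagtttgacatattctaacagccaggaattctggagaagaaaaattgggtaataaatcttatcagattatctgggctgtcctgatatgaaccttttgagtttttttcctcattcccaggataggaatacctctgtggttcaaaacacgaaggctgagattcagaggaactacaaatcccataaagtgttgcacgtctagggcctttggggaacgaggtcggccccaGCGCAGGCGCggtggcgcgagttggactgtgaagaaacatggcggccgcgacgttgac
NDUFB4 held 3 NRF1 matches, COX8C and UQCR10 held 1 each, and ATP5J held 1 ETS match and 1 YY1 match. The NDUFB10 window held none of the 3 motifs.

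Over the 65 member windows, the NRF1 motif was found in 16 (24.6%), against 6.28% of all 27305 promoter windows and 8.58% of the 15843 windows of protein-coding genes. CCGGAAG was found in 18 (27.7%), against 10.7% and 14.2%, and AAGATGGCG in 8 (12.3%), against 1.85% and 2.74%. Each of these 3 motifs was thus more frequent among the subunit genes than in either background. The GC box GGGCGG was found in 38 member windows (58.5%), against 44.6% of all windows and 58.5% of coding ones, the CCAAT box CCAAT in 23 (35.4%), against 35.7% and 36.4%, and the TATA box TATAAA in 7 (10.8%), against 12.0% and 9.63%. For these general promoter elements the subunit genes stood close to other coding genes. Of the other motifs searched, the cAMP response element TGACGTCA was found in 7.69% of member windows and 2.59% of coding windows, the E-box CACGTG in 10.8% and 8.88%, and the nuclear receptor half-site TGACCT in 21.5% and 11.7%. The remaining motifs of the 13 were the shorter ETS core CCGGAA (40% and 22.9%) and YY1 core AAGATGGC (16.9% and 3.91%), the NRF1 motif with T as the base in between (6.15% and 1.75%) and with GCGC on both sides of any 2 bases (26.2% and 12.0%), which overlap with the longer forms. A match is a string of letters in the window and does not show that a factor binds there.

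The lines were checked against markers of their labelled types. All 8 Merkel cell markers reached 10 TPM in the lines MKL-1, MKL-2 and WaGa, while none did in MCC13 or REH. ATOH1, KRT20 and INSM1 were listed at 0 in MCC13, so its expression goes against its label. Of 6 mesenchymal markers, 5 reached 10 TPM in MCC13, 3 in REH, 1 each in MKL-2 and WaGa, and 0 in MKL-1. In REH 7 of 8 pre-B-cell markers reached 10 TPM, while VPREB1 was listed at 0. Of the TPM total, mitochondrially encoded genes held 3.52% in MCC13, 6.50% in MKL-1, 7.84% in MKL-2 and 6.37% in WaGa, against 0.783% in REH, so the tests were also run after rescaling without these genes.

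Subunit genes were expressed at broadly similar levels in all 5 lines. The median member stood at 122 TPM in MCC13, 135 in MKL-1, 146 in MKL-2 and 142 in WaGa, against 129 TPM in REH. The 86 rows together took 1.22% of the TPM total in MCC13, 1.39% in MKL-1, 1.47% in MKL-2 and 1.42% in WaGa, against 1.47% in REH. MCC13 thus had the lowest share, and REH lay at the upper end of the range of the others. Of the members, 77 averaged 5 TPM or more over the lines and 9 did not. Among the 77 the level in the highest line was a median of 2.15 times that in the lowest line, against 3.62 times over the 13528 genes of the table that averaged as much. The highest line was under 2 times the lowest for 33 of the 77 members (42.9%), against 17.9% of those genes. The members and those genes, which reach down to an average of 5 TPM, were not matched for expression level. MCC13 was the highest line for 7 of the 77 members (and for 20.9% of all those genes), MKL-1 for 6 (21.9%), MKL-2 for 21 (17%), WaGa for 14 (17.5%) and REH for 29 (22.7%). MCC13 was the lowest line for 25 members (and for 29% of all those genes), MKL-1 for 14 (11.3%), MKL-2 for 5 (14.9%), WaGa for 9 (14.1%) and REH for 24 (30.6%). MKL-2 was thus at the top more often than over all genes and at the bottom less often, and REH was at the top more often but at the bottom about as often; these shares were not tested.

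**Figure D1:**
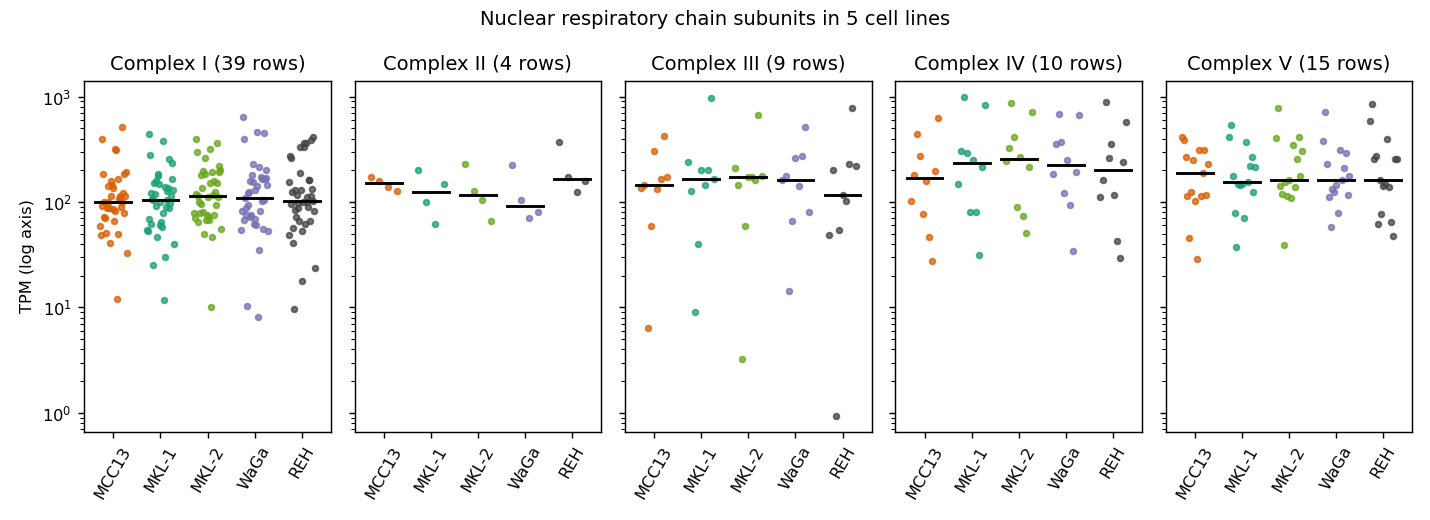
TPM (log axis) of the members averaging 5 TPM or more, by complex and cell line, with a point for each row and a bar at the median of each line. The medians lie close together in complex I, between 99.3 TPM in MCC13 and 114 TPM in MKL-2, and the low points of complex III are the second UQCR11 row.

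The order of the lines differed between complexes. Summed over complex I, members reached 4914 TPM in MCC13, 4897 in MKL-1, 5474 in MKL-2 and 5788 in WaGa, against 5594 TPM in REH, so REH lay within the others. The complex II sum was 599, 511, 530 and 482 TPM in MCC13, MKL-1, MKL-2 and WaGa, against 828 TPM in REH, which was above all of them. Complex III summed to 1548, 2106, 1762 and 1697 TPM in MCC13, MKL-1, MKL-2 and WaGa, against 1744 TPM in REH. For complex IV the sum was 2136 TPM in MCC13, lower than in each of the others, with sums of 3233 (MKL-1), 3266 (MKL-2) and 2948 TPM (WaGa), against 2804 TPM in REH. Complex V summed to 3006, 3114, 3651 and 3238 TPM in MCC13, MKL-1, MKL-2 and WaGa, against 3711 TPM in REH. Such sums are carried by the most abundant subunit genes and were not tested.

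Comparison of the 4 Merkel cell carcinoma lines with REH asked which subunit genes differed between these lines and REH. As REH is the only leukemia line, the comparison cannot speak for the tumour types. Of 81 members tested, 4 passed (4.94%), ATP5J2, ATP5J and NDUFB10 as higher and COX8C as lower in the Merkel cell carcinoma lines (limma on log2(TPM + 1), Benjamini-Hochberg adjusted p under 0.05 over 22250 genes). Over all genes tested 5.24% passed, 1.09% as higher and 4.15% as lower, so the share of members that passed was close to the background. COX8C was tested only because of its level in REH, which leaves the 3 higher members among the calls. At an unadjusted p under 0.05 there were 18 members (22.2%), against 18.6% of all genes. The median log2(TPM + 1) difference was -0.04 over the members and 0.18 over all genes. No member passed without MKL-1, without MKL-2 or without WaGa, and neither did any other gene of the table. More members passed without MCC13, and so did more genes of the whole table.

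ATP5J2 (ENSG00000241468), which encodes the f subunit in the membrane part of ATP synthase, stood at 312 TPM in MCC13, 270 in MKL-1, 412 in MKL-2 and 289 in WaGa, against 47.3 TPM in REH. All 4 Merkel cell carcinoma lines lay far above REH, with a mean of 321 ± 63.5 TPM (SD, n = 4), or 6.78 times the REH level. The log2(TPM + 1) difference was 2.72 ± 0.32 (SE, limma, adjusted p = 0.0211). When only genes averaging 5 TPM or more were tested, which leaves COX8C out, ATP5J2 was the 1 member that passed. Without MKL-1, MKL-2 or WaGa in turn it lost its call (limma, adjusted p = 0.0993, 0.0670 and 0.103).

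ATP5J (ENSG00000154723) encodes coupling factor 6, a part of the peripheral stalk that holds the catalytic head of ATP synthase still. Its level was 187, 217, 255 and 211 TPM in MCC13, MKL-1, MKL-2 and WaGa, against 64.7 TPM in REH, and the 2 groups did not overlap. The Merkel cell carcinoma lines averaged 218 ± 28.4 TPM (SD, n = 4), 3.36 times REH, with a log2(TPM + 1) difference of 1.73 ± 0.27 (SE, limma, adjusted p = 0.0424). GABPA, the neighbouring gene read in the opposite direction, whose start lies beside that of ATP5J, stood at 18.9, 47.9, 44.2 and 34.0 TPM in MCC13, MKL-1, MKL-2 and WaGa, against 39.2 TPM in REH, within their range. The kit keeps the strand, but the counting is not stated to use it. ATP5J did not pass among genes averaging 5 TPM or more (limma, adjusted p = 0.0653).

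NDUFB10 (ENSG00000140990), an accessory subunit in the membrane arm of complex I, stood at 158 TPM in MCC13, 183 in MKL-1, 185 in MKL-2 and 182 in WaGa, against 65.4 TPM in REH. The 3 lines MKL-1, MKL-2 and WaGa were nearly level, MCC13 lay a little below them and REH far below. The difference was 1.42 ± 0.24 on the log2(TPM + 1) scale (SE, limma, adjusted p = 0.0495). This call was at the edge of the threshold and did not hold after rescaling without mitochondrially encoded genes (limma, adjusted p = 0.0523) or after quantile normalization (limma, adjusted p = 0.0502).

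COX8C (ENSG00000187581) encodes a form of the smallest complex IV subunit that is known from the testis, next to the widely expressed COX8A. It was near 0 in the Merkel cell carcinoma lines, at 0.179 TPM in MCC13, 0.329 TPM in MKL-1, a listed 0 in MKL-2 and 0.0528 in WaGa, against 22.3 TPM in REH. The log2(TPM + 1) difference was -4.36 ± 0.34 (SE, limma, adjusted p = 0.00722). COX8C reached the filter of 1 TPM through REH alone, and the added 1 TPM narrows the spread of the near-0 values, so its call is a description of that level and no further support. COX8A stood at 629, 841, 721 and 674 TPM in MCC13, MKL-1, MKL-2 and WaGa, against 571 TPM in REH (log2 difference 0.32 ± 0.28, limma, adjusted p = 0.629). COX8C therefore made up 3.75% of the summed TPM of the pair in REH and at most 0.0392% in any Merkel cell carcinoma line. Without MKL-1, MKL-2 or WaGa the COX8C difference did not pass (limma, adjusted p = 0.0802, 0.0651 and 0.0776).

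**Figure D2:**
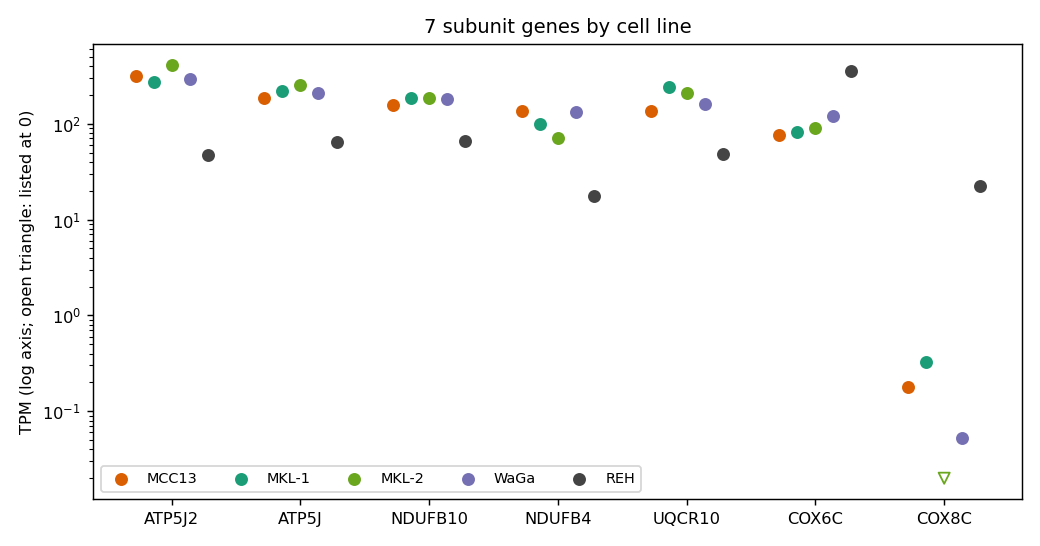
TPM (log axis) of 7 members in each cell line, with 1 point per library and an open triangle for a value listed at 0. REH lies below all 4 Merkel cell carcinoma lines for ATP5J2, ATP5J, NDUFB10, NDUFB4 and UQCR10, and above all 4 for COX6C and COX8C.

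Several members with differences as large did not pass. COX6C, a small accessory subunit of complex IV, stood at 76.2, 81.1, 89.3 and 121 TPM in MCC13, MKL-1, MKL-2 and WaGa, against 356 TPM in REH (log2 difference -1.96 ± 0.34, limma, adjusted p = 0.0539). NDUFB4, an accessory subunit of the membrane arm of complex I, stood at 135, 100, 71.7 and 131 TPM in MCC13, MKL-1, MKL-2 and WaGa, against 17.7 TPM in REH (2.52 ± 0.45, limma, adjusted p = 0.0553). UQCR10, a small accessory subunit of complex III, stood at 136, 240, 208 and 162 TPM, against 48.5 TPM in REH (1.89 ± 0.39, limma, adjusted p = 0.0799). For each of these genes every Merkel cell carcinoma line lay on the same side of REH. UQCR10 passed when MCC13 was left out (2.03, limma, adjusted p = 0.0428), as did COX7A2, described with complex IV.

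**Figure D3:**
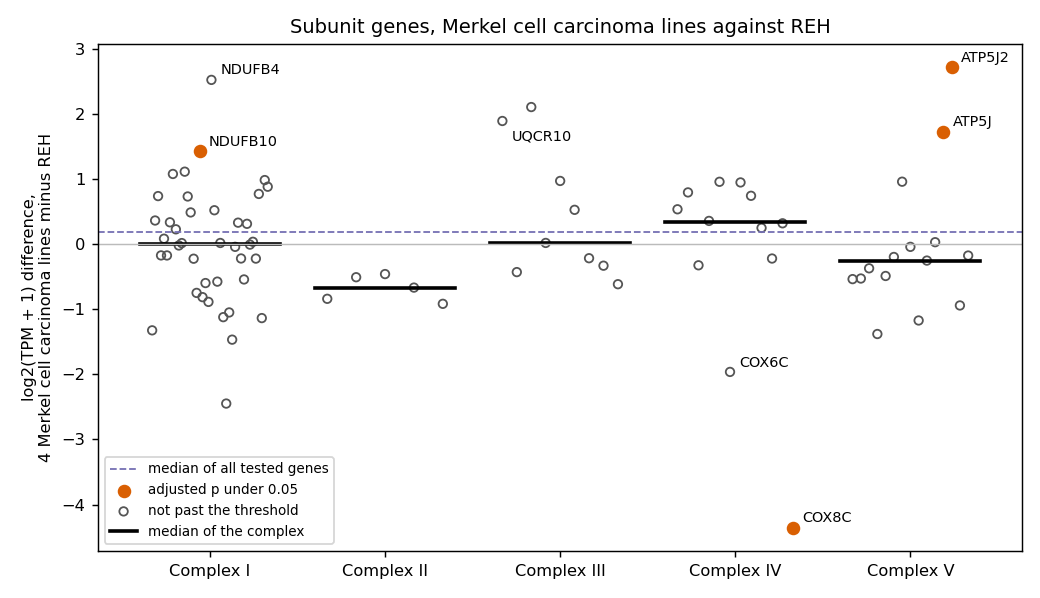
Difference of the 4 Merkel cell carcinoma lines from REH for each tested member, in log2(TPM + 1), by complex, with filled points for adjusted p under 0.05 (limma), bars at the median of each complex and a dashed line at the median of all tested genes, 0.18. Most members lie within 1 log2 unit of 0, and the 5 points of complex II all lie below 0. Among these, the second SDHD row was tested only because of its level in REH. The 4 filled points are NDUFB10, COX8C, ATP5J2 and ATP5J.

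The position of REH outside the range of the other lines was counted as well. Of the 77 members averaging 5 TPM or more, 24 were above REH in all 4 Merkel cell carcinoma lines (31.2%), against 30.6% of all genes at that level, and 29 were below REH in all 4 (37.7%), against 22.7%. Together 53 of the 77 (68.8%) had REH outside the range of the others, against 53.3% of all genes. In complex I the 2 directions were nearly even, with 12 above and 14 below of 39 members. In complex V 3 were above and 8 below of 15.

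In complex I no core subunit described here passed between the groups. The flavoprotein subunit NDUFV1, which binds NADH, stood at 114, 234, 220 and 200 TPM in MCC13, MKL-1, MKL-2 and WaGa, against 409 TPM in REH (log2 difference -1.14 ± 0.47, limma, adjusted p = 0.315). Its partner NDUFV2, an iron-sulfur protein, stood at 190, 130, 200 and 144 TPM, against 82.2 TPM in REH (0.98 ± 0.35, limma, adjusted p = 0.243). These subunits of the NADH-binding module thus had differences of opposite sign, and neither passed. NDUFS1, which carries most iron-sulfur clusters of that module, stood at 114, 104, 74.9 and 174 TPM in MCC13, MKL-1, MKL-2 and WaGa, against 88.7 TPM in REH.

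Further core subunits lie on the path to ubiquinone. NDUFS3 stood at 89.0, 135, 124 and 102 TPM in MCC13, MKL-1, MKL-2 and WaGa, against 163 TPM in REH. NDUFS7 stood at 77.8, 114, 112 and 165 TPM, against 132 TPM in REH. REH was above all 4 lines for NDUFS3 and within their range for NDUFS7. NDUFS8 stood at 182, 164, 191 and 169 TPM, against 103 TPM in REH, with all 4 lines above REH (0.77 ± 0.24, limma, adjusted p = 0.183).

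Accessory subunits of complex I spanned a wider range. NDUFA11, a subunit of the membrane arm, had the highest median of the complex, at 400, 438, 393 and 638 TPM in MCC13, MKL-1, MKL-2 and WaGa, against 275 TPM in REH. NDUFA1, a small membrane subunit needed for assembly, stood at 59.0, 54.3, 78.0 and 54.4 TPM, against 154 TPM in REH (-1.33 ± 0.32, limma, adjusted p = 0.115). NDUFC1 stood at 49.6, 30.2, 46.1 and 35.3 TPM, against 111 TPM in REH (-1.47 ± 0.39, limma, adjusted p = 0.138). Both of these small subunits were highest in REH, whereas NDUFA4 stood at 69.9, 106, 99.9 and 75.7 TPM in MCC13, MKL-1, MKL-2 and WaGa, against 40.6 TPM in REH, its lowest level. The median log2 difference of the 40 tested complex I members was 0.00, with 20 positive and 20 negative.

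Some abundant accessory subunits varied mainly between single lines. NDUFS5, a subunit of the membrane arm, stood at 509, 256, 365 and 455 TPM in MCC13, MKL-1, MKL-2 and WaGa, against 386 TPM in REH (-0.01 ± 0.45, limma, adjusted p = 0.993). NDUFB7 stood at 316, 381, 319 and 460 TPM, against 360 TPM in REH, and NDUFA13, also known as GRIM-19, at 185, 280, 296 and 397 TPM, against 264 TPM in REH. REH lay within the range of the Merkel cell carcinoma lines for all 3. NDUFB9 stood at 164, 139, 191 and 214 TPM, against 363 TPM in REH (-1.05 ± 0.32, limma, adjusted p = 0.184), and NDUFB11 at 114, 177, 262 and 231 TPM, against 331 TPM in REH (-0.82 ± 0.52, limma, adjusted p = 0.510). These subunits of the membrane arm were highest in REH, where NDUFB10 and NDUFB4 were lowest. NDUFA2 was the most even member of the complex, at 99.7, 123, 114 and 108 TPM, against 125 TPM in REH, a range of 1.26 times.

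Complex II was the complex in which no tested member had a positive difference (0 of 5, median -0.67), although none passed. Of all 22250 genes tested, 9686 had a negative difference. The flavoprotein SDHA, which oxidizes succinate, stood at 172, 201, 232 and 226 TPM in MCC13, MKL-1, MKL-2 and WaGa, against 370 TPM in REH (-0.84 ± 0.28, limma, adjusted p = 0.213). The iron-sulfur subunit SDHB stood at 160, 99.5, 128 and 105 TPM, against 173 TPM in REH. REH was highest for both, and also for the membrane anchor SDHD, with 127, 148, 65.7 and 80.0 TPM in MCC13, MKL-1, MKL-2 and WaGa, against 159 TPM in REH. SDHC, the other anchor, stood at 140, 62.0, 104 and 70.6 TPM in MCC13, MKL-1, MKL-2 and WaGa, against 124 TPM in REH, which lay within their range. The fifth tested row is a second SDHD identifier at no more than 1.71 TPM in any line. It reached the filter of 1 TPM through REH alone, which fixed its negative sign. Among genes averaging 5 TPM or more, which leaves this row out, the complex II median was -0.59.

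In complex III the 9 tested members had a median difference of 0.02, and this sign turned to -0.06 after quantile normalization. UQCRH, the hinge protein of the cytochrome c docking site, was the most abundant, at 424, 971, 662 and 519 TPM in MCC13, MKL-1, MKL-2 and WaGa, against 773 TPM in REH. The core protein UQCRC1 stood at 306, 203, 174 and 262 TPM, against 117 TPM in REH (0.97 ± 0.39, limma, adjusted p = 0.301), and UQCRC2 at 133, 146, 173 and 143 TPM, against 103 TPM in REH. Both core proteins were lowest in REH. The Rieske iron-sulfur protein UQCRFS1 stood at 167, 202, 162 and 273 TPM in MCC13, MKL-1, MKL-2 and WaGa, against 229 TPM in REH, within their range. UQCRQ, a small ubiquinone-binding subunit, had the most negative difference of the complex, with 173, 167, 176 and 80.4 TPM, against 219 TPM in REH (-0.62 ± 0.54, limma, adjusted p = 0.624).

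Complex IV had the highest median difference, 0.34, with 8 of 12 tested members positive, and COX8C as its 1 member that passed. COX6A1, an accessory subunit, was the most abundant, at 443, 991, 865 and 676 TPM in MCC13, MKL-1, MKL-2 and WaGa, against 894 TPM in REH. COX5A stood at 103, 147, 243 and 182 TPM, against 111 TPM in REH, and COX5B, which binds zinc, at 179, 302, 328 and 352 TPM, against 162 TPM in REH (0.79 ± 0.45, limma, adjusted p = 0.470). For both COX5 subunits MCC13 was close to REH and the other 3 lines stood above them. COX7A2 stood at 159, 251, 267 and 251 TPM in MCC13, MKL-1, MKL-2 and WaGa, against 118 TPM in REH (0.94 ± 0.38, limma, adjusted p = 0.294). COX7C was the most even member of the complex, at 196, 214, 213 and 193 TPM, against 238 TPM in REH, a range of 1.23 times.

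**Figure D4:**
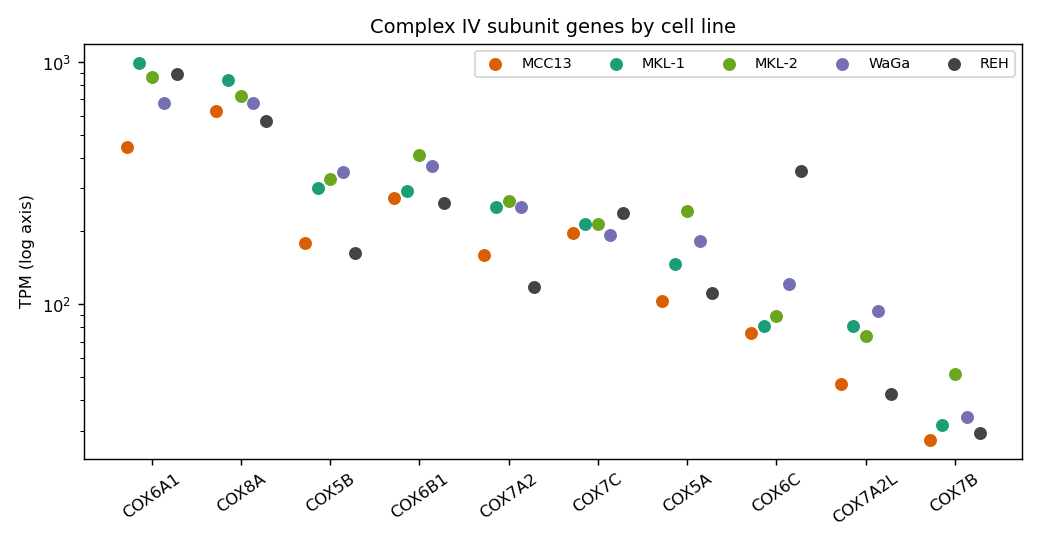
TPM (log axis) of the 10 complex IV members averaging 5 TPM or more, in order of median level, with 1 point per cell line. MCC13 is the lowest Merkel cell carcinoma line for every gene shown except COX7C, and REH stands alone at the top for COX6C.

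Among complex V members the beta and alpha subunits of the catalytic F1 head had the highest mean levels over the 5 lines, unlike its other subunits. The beta subunit ATP5B, which carries the catalytic sites, stood at 388, 543, 772 and 714 TPM in MCC13, MKL-1, MKL-2 and WaGa, against 844 TPM in REH. The alpha subunit ATP5A1 was nearly level over the Merkel cell carcinoma lines, at 416, 410, 406 and 382 TPM, against 587 TPM in REH (-0.54 ± 0.22, limma, adjusted p = 0.313). Both were highest in REH, without passing. The rotor subunit gamma, ATP5C1, stood at 269, 177, 140 and 229 TPM, against 257 TPM in REH, and epsilon, ATP5E, at 45.6, 37.2, 39.1 and 57.4 TPM, against 62.5 TPM in REH. Delta, ATP5D, had the most negative difference of the complex, with 114, 79.1, 120 and 111 TPM in MCC13, MKL-1, MKL-2 and WaGa, against 274 TPM in REH (-1.38 ± 0.33, limma, adjusted p = 0.109).

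The other stalk and membrane subunits of ATP synthase differed in pattern, and the c subunit genes, of which ATP5G1 was above REH in all 4 Merkel cell carcinoma lines, are described further on. Of the peripheral stalk, ATP5F1 (subunit b) stood at 124, 150, 155 and 133 TPM in MCC13, MKL-1, MKL-2 and WaGa, against 161 TPM in REH, ATP5H (subunit d) at 309, 374, 345 and 309 TPM, against 398 TPM in REH, and ATP5O (the oligomycin sensitivity-conferring protein) at 230, 215, 305 and 177 TPM, against 257 TPM in REH. The log2(TPM + 1) differences of these 3 stalk genes lay between -0.25 and -0.18, against 1.73 for ATP5J. Of the membrane subunits around ATP5J2, ATP5I (subunit e) stood at 113, 153, 137 and 162 TPM, against 137 TPM in REH. ATP5L (subunit g) stood at 117, 125, 178 and 117 TPM, against 255 TPM in REH (-0.94 ± 0.34, limma, adjusted p = 0.247). The median difference over the 15 tested complex V members was -0.25, with 4 positive and 11 negative.

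MCC13 was then set against MKL-1, MKL-2 and WaGa, the line without Merkel cell markers against those that have them. None of 79 tested members passed (limma, adjusted p under 0.05 over 20698 genes), against 8.95% of all genes, 6.47% as higher and 2.47% as lower in MCC13. At an unadjusted p under 0.05 there were 10 members (12.7%), against 26.6% of all genes. The median log2 difference was -0.23 over members and -0.30 over all genes, so the members as a whole were placed near the centre of the table. MCC13 was above the other 3 lines for 14 of 77 members (18.2%), against 27.9% of all genes averaging 5 TPM or more, and below them for 39 of 77 (50.6%), against 44.1%. Together it lay outside their range for 53 of 77 (68.8%), against 72% of all genes at that level.

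Of the 5 complexes, complex IV had the largest share of members with MCC13 at the bottom. MCC13 was below MKL-1, MKL-2 and WaGa for 9 of 10 members averaging 5 TPM or more and above them for none. Over all genes at that level it was below them for 44.1% and above them for 27.9%. The median log2 difference was -0.46 for complex IV, against -0.30 over all genes tested, so part of it is shared with the table as a whole. COX5B stood at 179 TPM in MCC13, against 327 ± 25.0 TPM (SD, n = 3) in the other 3 lines (-0.86 ± 0.20, limma, adjusted p = 0.112). COX7A2 stood at 159 TPM in MCC13, against 256 ± 9.15 TPM (-0.68 ± 0.18, limma, adjusted p = 0.133), and COX6A1 at 443 TPM, against 844 ± 159 TPM (-0.91 ± 0.32, limma, adjusted p = 0.201). COX7A2L, a factor that helps complexes III and IV to join in supercomplexes, stood at 46.7 TPM in MCC13, against 82.8 ± 10.1 TPM (-0.81 ± 0.24, limma, adjusted p = 0.160). Mitochondrially encoded genes, which include the catalytic complex IV subunits, also took a smaller share in MCC13 than in these lines. Their part in the result was not tested beyond the rescaling. After it the median was -0.51 for complex IV and -0.34 for all genes.

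In the other complexes the direction was mixed. NDUFA5, an accessory subunit of the peripheral arm of complex I, stood at 50.6 TPM in MCC13, against 98.7 ± 6.002 TPM (SD, n = 3) in the other 3 Merkel cell carcinoma lines, and had the smallest adjusted p of the members (-0.95 ± 0.19, limma, adjusted p = 0.0932). NDUFV1 followed, at 114 TPM in MCC13, against 218 ± 17.2 TPM (-0.92 ± 0.20, limma, adjusted p = 0.101). NDUFB8, a membrane arm subunit often used as a marker of assembled complex I, had the most positive difference, at 310 TPM in MCC13, against 78.6 (MKL-1), 151 (MKL-2) and 142 TPM (WaGa) (1.37 ± 0.49, limma, adjusted p = 0.209), with 331 TPM in REH. Complex II was the complex with a positive median, 0.50 over 4 tested members, led by SDHC (140 TPM in MCC13, against 62.0, 104 and 70.6 TPM, 0.86 ± 0.39, limma, adjusted p = 0.281), while SDHA differed by -0.35. In complex III the most positive difference was 0.54 for UQCRC1 and the most negative -0.71 for UQCRH, and the medians were -0.21 for complex I, -0.21 for complex III and -0.15 for complex V.

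The mitochondrial c ring of ATP synthase, which turns as protons pass, is encoded by 3 genes whose mature protein is the same. Their summed level was even over the lines, at 382 TPM in MCC13, 364 in MKL-1, 386 in MKL-2 and 347 in WaGa, against 366 TPM in REH, a range of 1.11 times. Their shares differed. ATP5G1 gave 66.0% of the sum in MCC13, 39.7% in MKL-1, 29.8% in MKL-2 and 35.8% in WaGa, against 21.2% in REH, while ATP5G3 gave 7.49%, 19.4%, 28.0% and 22.6%, against 40.2% in REH. ATP5G1 and ATP5G3 thus stood in opposite order over MCC13 and REH, with the other 3 lines between them, and ATP5G2 gave 26.5% in MCC13 and 38.7% to 42.2% in the remaining lines.

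ATP5G1 itself stood at 252 TPM in MCC13, against 145 in MKL-1, 115 in MKL-2 and 124 in WaGa (0.98 ± 0.23, limma, adjusted p = 0.113), with 77.4 TPM in REH. ATP5G3 stood at 28.6 TPM in MCC13, against 70.7, 108 and 78.4 TPM (-1.53 ± 0.34, limma, adjusted p = 0.105), with 147 TPM in REH. Neither difference passed, nor did the difference of either gene over all 4 Merkel cell carcinoma lines against REH (0.96 ± 0.51 for ATP5G1 and -1.17 ± 0.76 for ATP5G3, limma, adjusted p = 0.435 and 0.519). ATP5G2 stood at 101 TPM in MCC13, against 149 in MKL-1, 163 in MKL-2 and 144 in WaGa, with 142 TPM in REH.

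**Figure D5:**
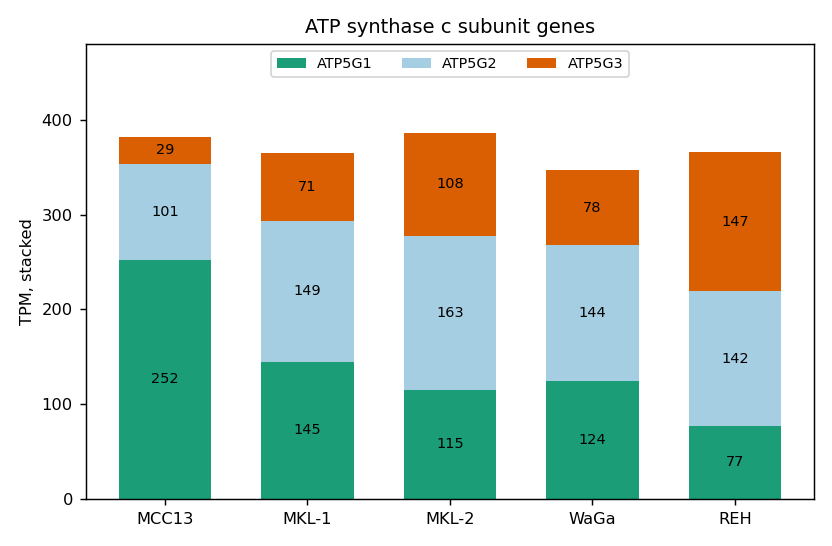
Stacked TPM of the 3 genes for the c subunit of ATP synthase in each cell line. The stacks are of nearly the same height, from 347 TPM in WaGa to 386 TPM in MKL-2, while the ATP5G1 part is largest in MCC13 and the ATP5G3 part is largest in REH.

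Like COX8C, the tissue-type COX isoforms that follow gave only a small part of the summed level of their pairs. COX6A2 and COX7A1, the heart and skeletal muscle forms, reached at most 0.266 and 0.215 TPM in any line, beside COX6A1 and COX7A2 at over 100 TPM. COX7B2, a testis form, was listed at 0 in all 5 lines, while its common partner COX7B stood at 27.5, 31.6, 51.3 and 34.1 TPM in MCC13, MKL-1, MKL-2 and WaGa, against 29.4 TPM in REH. COX6B2, also a testis form, stood at 1.82, 0.858, 2.74 and 0.652 TPM, against 0.231 TPM in REH (0.95 ± 0.57, limma, adjusted p = 0.492), beside COX6B1 at 274, 293, 412 and 370 TPM, against 260 TPM in REH. COX4I2, the form known from lung, stood at a listed 0, 0.287, 2.85 and 0.0812 TPM, and was listed at 0 in REH, while COX4I1 stood at 347, 313, 400 and 306 TPM, against 354 TPM in REH.

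NDUFA4L2, a relative of NDUFA4 known as a target of hypoxia-inducible factors, differed widely between lines. It was listed at 0 in MCC13 and stood at 25.1 TPM in MKL-1, 78.9 in MKL-2 and 10.3 in WaGa, with 9.61 TPM in REH. Its share of the summed NDUFA4 and NDUFA4L2 level was 19.1% in MKL-1, 44.1% in MKL-2 and 12.0% in WaGa, against 19.1% in REH. The 3 lines in which it was found among the Merkel cell carcinoma lines differed widely among themselves, and the difference of MCC13 did not pass (-4.84 ± 1.31, limma, adjusted p = 0.140).

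Rows that share a symbol or resemble other loci are uncertain. NDUFB8, SDHD, NDUFA7 and UQCR11 each have a second identifier at an overlapping locus, between which the counting could divide reads. The second NDUFB8 row (ENSG00000255339) stood at 12.1, 11.9, 10.0 and 8.18 TPM in MCC13, MKL-1, MKL-2 and WaGa, against 61.4 TPM in REH (-2.45 ± 0.44, limma, adjusted p = 0.0578), and passed without MCC13 (limma, adjusted p = 0.0382). The second UQCR11 row (ENSG00000267059) stood at 6.39, 9.07, 3.27 and 14.2 TPM, against 0.943 TPM in REH (2.10 ± 0.87, limma, adjusted p = 0.312), but with the UQCR11 rows summed the difference was -0.36, since the main row stood at 144, 127, 146 and 177 TPM, against 199.6 TPM in REH. The second NDUFA7 row was listed at 0 in MCC13 and REH and lay between 1.10 and 3.76 TPM in the other 3 lines. The second SDHD row was listed at 0 in MKL-2, ATP5L2 was listed at 0 in MCC13 and reached at most 0.823 TPM, and ATP5J2LP was listed at 0 in MCC13 and MKL-2 and reached at most 0.509 TPM.

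The 123 names of pseudogene copies that the rule left out summed to 31.6, 30.0, 36.0 and 30.6 TPM in MCC13, MKL-1, MKL-2 and WaGa, against 83.0 TPM in REH. Of these, 19 reached 1 TPM in a line and 14 of the 19 were highest in REH. Copies reached 5% of the level of their parent gene in some line for 5 of 34 parents, with the highest share 7.72% for ATP5E. None of these 5, which also include COX7C, UQCRFS1, NDUFA5 and NDUFV2, passed in either comparison.

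Genes that work with the subunits were examined as lists. The 13 mitochondrially encoded subunits summed to 28082 TPM in MCC13, 49107 in MKL-1, 58515 in MKL-2 and 46266 in WaGa, against 4595 TPM in REH. The ratio of the nuclear sum to this sum was 0.435 in MCC13, 0.282 in MKL-1, 0.251 in MKL-2 and 0.306 in WaGa, against 3.19 in REH. In REH the nuclear subunits thus outweighed the mitochondrial ones, and in the other lines they did not. Of the 13, MT-CYB, MT-CO2, MT-CO3, MT-ATP6 and MT-ATP8 passed with higher levels in the 4 Merkel cell carcinoma lines (median log2 difference of the 13, 3.49), against 1.09% of all genes as higher, and 0 of 13 passed between MCC13 and the other 3 lines (median -0.91). The 5 calls were lost without MKL-1, without MKL-2 or without WaGa, where 0 genes of the table passed.

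No member of the other lists passed in the comparison with REH, where 5.24% of all genes tested did. Among 13 complex I assembly factors (median log2 difference 0.27), NDUFAF3 had the largest difference (1.26), followed by NDUFAF2 and TMEM126B (0.87 each). UQCC2, which assists cytochrome b synthesis, led the 7 tested assembly factors of complexes II and III, at 46.1, 59.6, 89.2 and 111 TPM in MCC13, MKL-1, MKL-2 and WaGa, against 16.2 TPM in REH (2.09 ± 0.56, limma, adjusted p = 0.143), followed by BCS1L (0.94) and LYRM7 (0.72). Of 21 complex IV assembly factors (median -0.24) the largest were PET100 (-1.22), COX11 (1.11) and COX16 (-1.003). ATPAF1 (-1.27), C14orf2 (-0.83) and ATP5S (0.73) led the 7 ATP synthase assembly and associated genes (median -0.15). Among the 7 subunits and carriers outside the name rule (median 0.14), cytochrome c, CYCS, stood at 129, 128, 197 and 173 TPM, against 64.2 TPM in REH (1.25 ± 0.35, limma, adjusted p = 0.159), followed by PDSS1 (-0.84) and COQ7 (0.70). CYC1, the cytochrome c1 of complex III, stood at 193, 217, 280 and 267 TPM, against 266 TPM in REH, and NDUFAB1, the acyl carrier protein of complex I, at 116, 133, 169 and 188 TPM, against 171 TPM in REH. The 17 regulators of mitochondrial biogenesis (median -0.19) were led by C10orf2 (-1.15), TFB1M (0.92) and POLG (-0.76), and the 17 enzymes of the tricarboxylic acid cycle (median 0.22) included IDH3G (1.10) and OGDH (1.08).

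Between MCC13 and the other 3 Merkel cell carcinoma lines 1 gene of these lists passed, against 8.95% of all genes, and no gene of the table passed once any of those 3 lines was omitted. Tested were 13 complex I, 7 complex II and III and 21 complex IV assembly factors and 7 ATP synthase assembly and associated genes. The other lists held 7 subunits and carriers, 17 regulators and 17 cycle enzymes. USMG5, a small protein attached to ATP synthase dimers, stood at 197 TPM in MCC13, against 76.5 in MKL-1, 79.6 in MKL-2 and 82.6 in WaGa, a level higher by 1.296 ± 0.18 on the log2(TPM + 1) scale (SE, limma, adjusted p = 0.0468), with 149 TPM in REH. It was the 1 positive difference of its list of 7 (median -0.54), where ATPAF2 (-2.51) and ATPAF1 (-0.94) lay lowest. All 7 tested assembly factors of complexes II and III had negative differences (median -0.45), with SDHAF1 (-1.16), UQCC2 (-0.85) and SDHAF2 (-0.76) the largest. Complex I assembly factors were led by NDUFAF6 (-1.301), NDUFAF3 (1.25) and ECSIT (-1.18), and complex IV assembly factors (median 0.26) by the copper chaperones SCO2 (1.41) and SCO1 (1.33) and by COX20 (1.41). The largest differences among the regulators were EPAS1 (3.33), C10orf2 (1.61) and YY1 (-1.25), those of the cycle enzymes DLST (-1.16), IDH3G (-1.09) and IDH2 (-0.91), and those of the subunits and carriers outside the name rule COQ7 (-1.06), PDSS1 (0.50) and NDUFAB1 (-0.47).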

How the data were processed

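Gene expression was used as deposited TPM values, which the authors computed for RNA of 5 cell lines. STAR 2.4.5b, SAMtools 0.1.19, StringTie 1.3.5 and bcl2fastq 2.20 and the builds GRCh37 and hg19 are named, per the submitters' processing notes, without role or order, and the sources used here name no annotation. Libraries were directional, per the labels' protocols. TPM keeps no depth, so the read depth is unknown and precision rests on the number of lines. A value of 0 can be a failed estimate and is called listed at 0. The 1 value column matching no sample was not used, and neither were the PAX5 exon values.

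Genes at 1 TPM or more in a line compared were tested on log2(TPM + 1) with R 4.3.3 and limma 3.58.1 (variance trend, 2-sided, Benjamini-Hochberg over all genes tested), with 3 residual degrees of freedom against REH and 2 for MCC13. REH and MCC13, each alone in its group, were assumed to vary like the other lines. Exact permutation over lines cannot reach p = 0.05 here: its smallest p is 0.2 against REH and 0.25 for MCC13. Differences on this scale understate changes of low genes.

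The members, lists and naming rule were chosen with earlier results of these data known. Named were members that passed, core subunits, isoforms, the extremes of each complex, members listed at 0, and in each other list the genes that passed or else the 3 largest differences; the remaining members, GABPA, and the values at the edge of the threshold were named after their values were seen. Some genes that the rule names are in every test but are not reported here. Alternatives were other pseudocounts, filters, scalings and trends, leaving out lines, and, chosen after seeing the data, summing rows that share a symbol. Promoter windows and motif matches used Python 3.11.15 with pandas 2.3.3, and locus overlaps and pseudogene types used GENCODE 29.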

Additional observations from a re-analysis of the deposited data

Results flagged for a closer look

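Of 86 members checked over the 4 Merkel cell carcinoma lines, 7 had a line set apart from the other 3. The rule took the gap to the nearest line as a share of the range of the 4 lines. A small distance, as for NDUFB10, can therefore be flagged when the other 3 lines lie close together. The nominal chance rate of the rule is about 1 in 20, and the count was not compared with all genes of the table. NDUFB10 stood at 158 TPM in MCC13, against 182 to 185 TPM in the other 3 lines. COX7A2, a complex IV subunit, stood at 159 TPM in MCC13, against 251 to 267 TPM. NDUFB2, a membrane arm subunit of complex I, stood at 67.4 TPM in MKL-2, against 143 to 156 TPM in the other 3, while NDUFB5, of the same arm, stood apart in the other direction at 112 TPM in MKL-2, against 65.2 to 68.8 TPM. ATP5L, the g subunit of ATP synthase, stood at 178 TPM in MKL-2, against 117 to 125 TPM. UQCRQ of complex III stood at 80.4 TPM in WaGa, against 167 to 176 TPM. The pseudogene ATP5J2LP stood at 0.143 TPM in WaGa, against 0 to 0.0230 TPM, a level too low to be read.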

How the results depend on the processing

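Against REH, 4 members passed. With genes averaging 5 TPM or more 1 passed (ATP5J2; COX8C was not tested there), with a pseudocount of 0.1 TPM 2 passed, and with a line left out 0 to 7 passed, 0 without MKL-1, MKL-2 or WaGa and 7 without MCC13 (5 higher, 2 lower). The calls over all genes, 1166, were 288 with genes averaging 5 TPM or more, 3794 with no filter and 0 to 2828 with a line left out. For MCC13 the calls over all genes, 1852, were 1167 and 3513 under these filters and 0 to 0 with a line left out, and members passing (limma) stayed at 0 in every alternative run (4 to 7 at an unadjusted p under 0.05 with a line left out). Of median differences, complex V against REH was -0.37 with no filter, and complex III against REH was -0.10 with rows of a symbol summed and -0.070 to 0.16 with a line left out. For MCC13, complex IV was -0.32 with no filter and -0.59 to -0.37 with a line left out, and complex III was -0.067 after quantile normalization and -0.16 to 0.015 with a line left out. The cause was not tested, beyond the fewer lines or genes fitted. The second UQCR11 row turned from 2.10 to -0.36 when its symbol was summed. Over 14 members named against REH, 124 of 150 values kept their direction and their side of the threshold, 21 lost the call, 4 gained one and 1 reversed; NDUFB10 and ATP5J also lost theirs without the variance trend (adjusted p = 0.0968 and 0.0799, limma) and with the smaller pseudocount (0.0612 and 0.0502), and NDUFB10 with rows of a symbol summed (0.05004). Over 14 members named for MCC13 all 138 values kept both. Of the members named against REH only the 4 that passed could lose a call, so all 21 losses were theirs. None of the members named for MCC13 passed, so they kept their side by staying uncalled. With a line left out no gene of the table passed for MCC13, which fixed that side in advance. The pooled counts therefore do not measure how stable the calls are. Quantile normalization moved the median of all genes from 0.18 to 0.03 against REH and from -0.30 to -0.13 for MCC13. No paired analysis was possible because each line had 1 library and no replicate number links the groups.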
